A study of Homo sapiens with 6 samples.

Results

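Angiopoietins, vascular endothelial growth factors (VEGFs) and the receptor tyrosine kinases they bind were followed through RNA-seq of untreated AID-DIvA cells with and without ARID1A, a DNA-binding subunit of the BAF form of the SWI/SNF chromatin remodeler. The set holds 10 of the 57820 genes in the deposited tables, which are the ligands ANGPT1, ANGPT2, ANGPT4, VEGFA, VEGFB and VEGFC and the receptors TEK, TIE1, FLT1 and KDR. It was chosen by the measured values of ANGPT2, which was nearly silent in WT cells and well expressed in ARID1A-KO cells. The other genes were added by family with results of these data known. The contrast between genotypes for ANGPT2 is therefore given as a description without a test, and that of the other genes from a fit over all genes.

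Angiopoietins are secreted ligands of TEK, the receptor also called TIE2, which keeps the endothelium of vessels quiescent. ANGPT1 is the agonist that mural cells supply. ANGPT2 is best known from endothelial cells, which store and release it, and it opposes or replaces ANGPT1 at TEK depending on context, loosening vessels for remodeling. TIE1 binds no classical angiopoietin on its own and modulates TEK. VEGFA drives vessel growth through KDR, also called VEGFR2, while FLT1, or VEGFR1, binds VEGFA, VEGFB and PGF tightly and limits the VEGFA that reaches KDR. VEGFC acts through FLT4 on lymphatic vessels. Tumor cells are a common source of the ligands, whereas the receptors are known mainly from endothelium.

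The AID-DIvA line is an osteosarcoma line derived from U2OS in which the nuclease AsiSI can be induced and then degraded through an auxin-inducible degron. All 6 samples carry that system and none was treated, so no nuclease was induced. The 2 groups were 3 WT samples and 3 ARID1A-KO samples, each numbered 3, 4 and 5. The knockout was made with Cas9 and 2 guide RNAs against ARID1A and clones were isolated. Which clone was sequenced is not given in the sources used here, so loss of ARID1A and a property of a clone cannot be told apart. The sample labels do not say whether the samples were separate cultures. The paper's legend for its RNA-seq panels gives 3 independent experiments, which it calls biological replicates. The p-values measure only the spread between these samples.

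Libraries held between 54512105 and 84088708 reverse-stranded counts, the sense counts of this library type. ARID1A itself (ENSG00000117713.13, GRCh37 chromosome 1, 27022524 to 27108595, plus strand) was at 166, 178 and 177 CPM, counts scaled to an equal library total, in WT replicates 3, 4 and 5 and at 25.1, 27.5 and 25.2 CPM in ARID1A-KO. Its log2 fold change, ARID1A-KO over WT, was -2.74 ± 0.07 (SE; edgeR quasi-likelihood test, adjusted p = 9.66e-08 after Benjamini-Hochberg correction over the 19599 genes tested). Of the osteoblast lineage markers, RUNX2 was at 15 ± 1.43 CPM (SD, n = 3) in WT and 14.6 ± 3.82 in ARID1A-KO. SP7, IBSP, BGLAP and COL1A2 were under 1 CPM in every sample of this osteosarcoma line. ALPL, the bone alkaline phosphatase, fell (-2.45, adjusted p = 0.000148), as did SPP1 (-1.45, 0.00222) and COL1A1 (-0.47, 0.0129), all in the same edgeR fit.

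Among the ligands and receptors, 9 of the 10 genes had enough reads to be tested, and ANGPT4 did not. Apart from ANGPT2, whose values chose the set, 8 were tested. At an adjusted p under 0.05 in edgeR, 2 of the 8, TEK and VEGFC, were lower and 0 were higher, where 18.4% of all genes tested were lower and 17.8% higher. DESeq2 also called 0 higher, and 1, TIE1, was higher at an unadjusted p under 0.05 in edgeR. The median log2 fold change of the 8 genes was -0.11, against 0.007 over all genes tested. The CPM of ARID1A-KO lay wholly below that of WT for TEK and VEGFC and wholly above for none of the 8, and over all genes tested each of these patterns was seen in 24.8%. The 4 genes ANGPT1, ANGPT4, TIE1 and KDR stayed under 1 CPM in every sample.

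**Figure D1:**
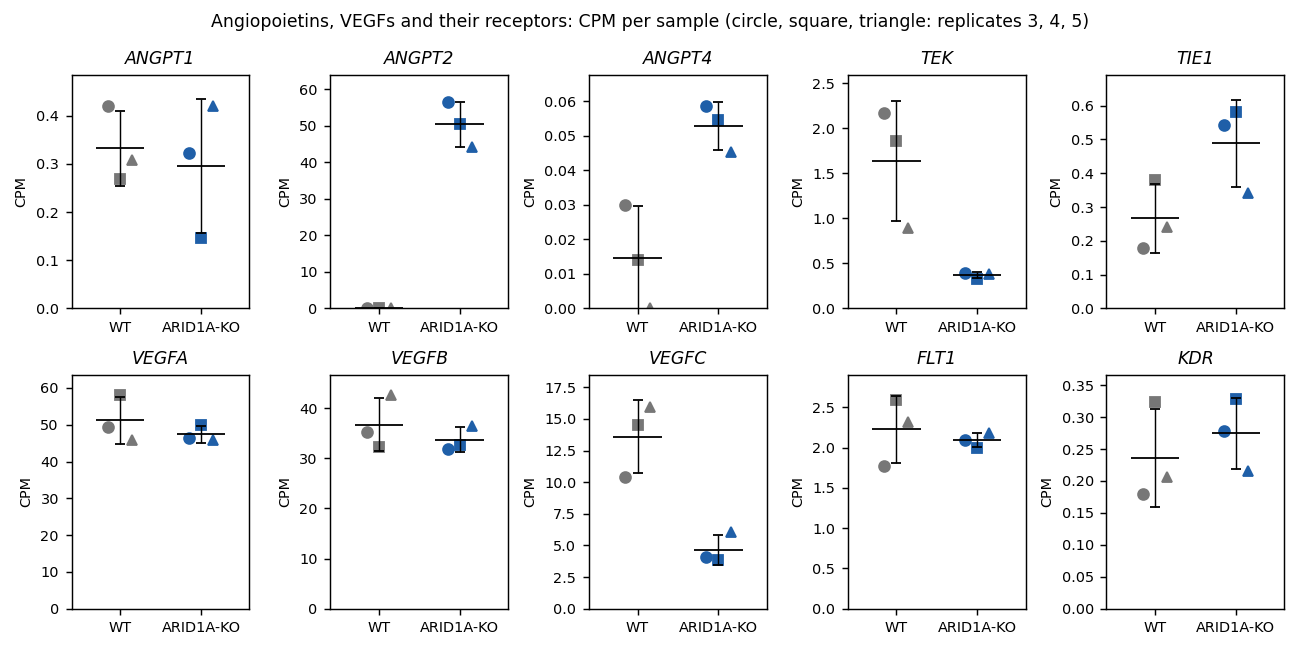
CPM (linear axes from 0, a scale for each gene) of the 10 genes in each of 3 WT and 3 ARID1A-KO samples, with the mean as a line and the SD as an error bar. ANGPT2 sits between 44.2 and 56.4 CPM in ARID1A-KO and at most at 0.254 in WT, while the ARID1A-KO samples of TEK and VEGFC lie below all WT samples.

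ANGPT2 (ENSG00000091879.9) lies on the minus strand of GRCh37 chromosome 8 from 6357172 to 6420930. Its reverse-stranded reads numbered 10, 18 and 2 in WT replicates 3, 4 and 5 and 3839, 2770 and 3893 in ARID1A-KO replicates 3, 4 and 5. Every WT sample was near 0 and every ARID1A-KO sample held at least 2770 reads, with no overlap. In CPM the values were 0.15, 0.254 and 0.0344 against 56.4, 50.4 and 44.2, or 0.146 ± 0.11 in WT and 50.3 ± 6.08 in ARID1A-KO (mean ± SD, n = 3). The fitted log2 fold change was 8.35 ± 0.26 (SE), a 326-fold difference and the third highest of the 19599 genes tested. With 30 reads in all 3 WT libraries, the size of this ratio rests on few reads. Leaving out WT replicate 4, which held 18 of the 30, gave 9.01, and leaving out the other samples in turn gave no value under 7.94. In bulk RNA, a change in the share of cells that express ANGPT2 and a change in the RNA of each cell cannot be told apart.

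ANGPT2 is contained in MCPH1 (ENSG00000147316.8, chromosome 8, 6264113 to 6501144), which runs on the plus strand and encodes microcephalin, a protein of chromosome condensation and the DNA damage response. The reads of the 2 genes were therefore compared by strand. MCPH1 had 1515, 1679 and 1275 reverse-stranded reads in WT and 1689, 1331 and 2035 in ARID1A-KO, at 22.8 ± 0.874 and 24 ± 0.856 CPM. Its ranges overlapped and its log2 fold change was 0.08 ± 0.07 (edgeR adjusted p = 0.417). In the GENCODE annotation, version 44 lifted to GRCh37, 658 exonic bases belong to both genes, which is 9.69% of the exonic bases of ANGPT2. The counts used another annotation, with 4894 exonic bases for MCPH1 against 27241 in version 44, so the shared part may differ there.

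Counts from the forward strand, which hold antisense reads, stayed low for ANGPT2, with 49, 46 and 28 in WT and 66, 63 and 72 in ARID1A-KO. In WT these forward-strand reads came to 123, against 30 sense reads over 3 samples. In ARID1A-KO they came to 201, or 1.91% of the sense reads. MCPH1 is transcribed on the strand of these reads and shares exonic bases with ANGPT2 in the GENCODE annotation above. Counted without strand, ANGPT2 had 52 reads in WT, fewer than the forward-strand reads alone. The part of MCPH1 reads in the forward-strand counts of ANGPT2 was not tested. MCPH1 had 6, 2 and 2 forward-strand reads in WT and 20, 23 and 33 in ARID1A-KO, the strand on which ANGPT2 is transcribed. Counted without strand, ANGPT2 had 19, 28 and 5 reads in WT and 3862, 2793 and 3902 in ARID1A-KO, with a log2 fold change of 7.57.

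**Figure D2:**
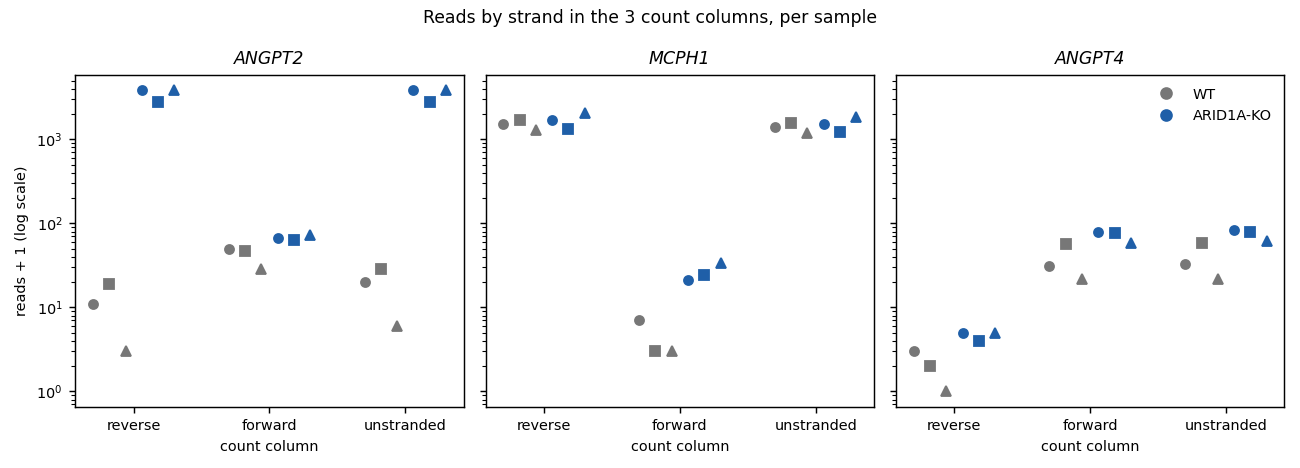
Reads plus 1 (log scale) of ANGPT2, MCPH1 and ANGPT4 in the reverse-stranded, forward-stranded and unstranded count columns, a point per sample (circle, square and triangle for replicates 3, 4 and 5). The gap between genotypes at ANGPT2 is in the reverse column, MCPH1 differs little there, and ANGPT4 has nearly all its reads in the forward column.

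ANGPT1 (ENSG00000154188.5, chromosome 8, 108261721 to 108510283, minus strand), the agonist of TEK, had 28, 19 and 18 reads in WT and 22, 8 and 37 in ARID1A-KO. ARID1A-KO replicate 4 was the lowest and replicate 5 the highest of the 6, and the groups overlapped. Its CPM was 0.332 ± 0.0786 in WT and 0.296 ± 0.139 in ARID1A-KO, with a log2 fold change of -0.11 ± 0.37 (edgeR adjusted p = 0.847) whose sign turned when WT replicate 3 or ARID1A-KO replicate 4 was left out. A difference was not detectable at this depth.

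ANGPT4 (ENSG00000101280.6, chromosome 20, 853296 to 896977, minus strand), a further TEK ligand, had 2, 1 and 0 reverse-stranded reads in WT and 4, 3 and 4 in ARID1A-KO, too few to be tested. Its forward-strand reads numbered 30, 56 and 21 in WT and 79, 76 and 57 in ARID1A-KO. Scaled to the library total, these were 0.351 to 0.773 CPM in WT and 0.678 to 1.39 in ARID1A-KO, higher on the whole but overlapping. Forward-strand reads made up 95.8% of its reads counted without strand, and neither the tables nor the later annotation places a gene on the opposite strand there. In a fit of unstranded counts the log2 fold change was 0.99 ± 0.34 (edgeR adjusted p = 0.0505 over 21180 genes), made almost wholly of antisense reads.

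TEK (ENSG00000120156.16, chromosome 9, 27109139 to 27230173, plus strand) is the receptor of all 3 angiopoietins. It was at 2.17, 1.86 and 0.893 CPM in WT replicates 3, 4 and 5, from 145, 132 and 52 reads, and at 0.397, 0.328 and 0.386 CPM in ARID1A-KO, from 27, 18 and 34 reads. WT replicate 5 was the lowest of its group and still above every ARID1A-KO sample. TEK fell by 2.14 on the log2 scale (SE 0.33, 4.41-fold lower, edgeR adjusted p = 0.000933). Over 12 alternative settings the log2 fold change ranged from -2.43 to -1.90. The adjusted p ranged from 2.29e-16, with no filter on low counts, to 0.0051, without ARID1A-KO replicate 4. No read of TEK was counted on the forward strand. ANGPT2 and its receptor TEK thus lay on opposite sides of the contrast, both measured at the RNA.

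TIE1 (ENSG00000066056.9, chromosome 1, 43766664 to 43788779, plus strand), the partner of TEK, had 12, 27 and 14 reads in WT and 37, 32 and 30 in ARID1A-KO. In CPM these were 0.18, 0.38 and 0.241 against 0.543, 0.582 and 0.341, and WT replicate 4 lay above ARID1A-KO replicate 5. The log2 fold change was 0.83 ± 0.34 and missed the threshold (edgeR adjusted p = 0.0856). It passed without WT replicate 4 (1.19, adjusted p = 0.0325), without ARID1A-KO replicate 5 (1.06, 0.0385) and with no filter on low counts (0.83, 0.0446), and the adjusted p ranged from 0.0325 to 0.25 over all settings.

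Because TEK and TIE1 are best known from endothelium, a list of 13 endothelial markers was read beside them. PECAM1 matched no gene name in the tables and 9 of the other 12 were tested, of which TAL1 (1.02, edgeR adjusted p = 0.000258) and SOX17 (0.59, 0.00921) rose and ERG fell (-0.64, 0.00138). These are transcription factors, and the median of the 9 was 0.41. Among all genes tested 17.8% were higher and 18.4% lower. Of the defining surface and junction genes, CLDN5 was at 0 CPM in WT and 0.0208 ± 0.0221 in ARID1A-KO, EMCN at 0.005 ± 0.00865 and 0, and CDH5 at 0.293 ± 0.118 and 0.425 ± 0.0788. EGFL7 (33 ± 5.89 CPM in WT) and ROBO4 (10.4 ± 3.09) made up most of the summed level, which ranged from 57 to 69.7 CPM in WT and from 69.4 to 74.6 in ARID1A-KO. No marker was at 0 in all samples and 6 of the 12 were under 1 CPM in every sample.

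For mural cells, the source of ANGPT1 in vessels, 6 of 7 markers were tested, at a median of -0.27. Of these, 0 were higher and 2 lower, beside 17.8% higher and 18.4% lower among all genes tested. ABCC9, a potassium channel subunit, fell (-0.68, edgeR adjusted p = 0.00357), and so did CSPG4, also called NG2 (-0.40, 0.0236). The call of CSPG4 was lost without WT replicate 5 (adjusted p = 0.0841), ARID1A-KO replicate 3 (0.0831) or ARID1A-KO replicate 5 (0.0659). MYH11, the smooth muscle myosin, was at 0.122 ± 0.0421 CPM in WT and 0.138 ± 0.0384 in ARID1A-KO. The summed level of the 7 was 79.1 to 102 CPM in WT and 67.8 to 77.4 in ARID1A-KO. All samples were of the AID-DIvA line, so these markers are given as levels of genes in that line. What sets the levels of TEK and TIE1 was not tested.

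VEGFA (ENSG00000112715.16, chromosome 6, 43737921 to 43754224, plus strand), the main driver of vessel growth, was at 49.3, 58.2 and 46 CPM in WT and 46.3, 50 and 45.9 in ARID1A-KO. The groups overlapped, at a log2 fold change of -0.11 ± 0.09 (edgeR adjusted p = 0.374). VEGFB (ENSG00000173511.5, chromosome 11, 64002010 to 64006259, plus strand), which binds FLT1, was at 35.2, 32.3 and 42.6 CPM in WT and 31.9, 32.7 and 36.5 in ARID1A-KO. These groups overlapped too, at -0.12 ± 0.11 (adjusted p = 0.4). With 7122 to 10098 reads per group, the standard errors of these log2 fold changes were among the smallest of the set.

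VEGFC (ENSG00000150630.2, chromosome 4, 177604689 to 177713881, minus strand), the lymphatic growth factor, was at 10.4, 14.5 and 15.9 CPM in WT and 4.05, 3.84 and 6.04 in ARID1A-KO. Its reads numbered 697, 1028 and 925 against 276, 211 and 532. All ARID1A-KO samples were below all WT samples. VEGFC fell by 1.54 on the log2 scale (SE 0.20, 2.91-fold lower, edgeR adjusted p = 0.000428), and over 12 settings the fold change stayed between -1.78 and -1.42, with an adjusted p of at most 0.00302.

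Of the VEGF receptors, FLT1 (ENSG00000102755.6, chromosome 13, 28874489 to 29069265, minus strand) was at 1.77, 2.59 and 2.32 CPM in WT and 2.1, 2 and 2.18 in ARID1A-KO. The ARID1A-KO samples lay inside the WT range, at a log2 fold change of -0.09 ± 0.17 (edgeR adjusted p = 0.73). KDR (ENSG00000128052.8, chromosome 4, 55944644 to 55991756, minus strand) had only 12, 23 and 12 reads in WT and 19, 18 and 19 in ARID1A-KO. Its groups overlapped, at 0.17 ± 0.33 (adjusted p = 0.718), and a difference was not detectable at this depth.

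TEK and VEGFC, the 2 genes of the set that fell, differ in the sequence before their start sites, which is shown for that reason. Of the 10 genes, 7 have a RefSeq promoter entry (GRCh38.p14), namely ANGPT4, TEK, TIE1, VEGFB, VEGFC, FLT1 and KDR. The 250 bases before the start site are printed 5′ to 3′ on the strand of the gene, with CpG dinucleotides in capitals, for TEK at chr9:27108975-27109224 on the plus strand and for VEGFC at chr4:176792923-176793172 on the minus strand.
TEK: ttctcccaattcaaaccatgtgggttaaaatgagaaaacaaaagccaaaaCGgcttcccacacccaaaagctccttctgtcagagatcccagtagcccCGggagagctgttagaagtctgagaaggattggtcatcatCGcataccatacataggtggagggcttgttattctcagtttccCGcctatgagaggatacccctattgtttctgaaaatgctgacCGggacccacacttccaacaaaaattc
VEGFC: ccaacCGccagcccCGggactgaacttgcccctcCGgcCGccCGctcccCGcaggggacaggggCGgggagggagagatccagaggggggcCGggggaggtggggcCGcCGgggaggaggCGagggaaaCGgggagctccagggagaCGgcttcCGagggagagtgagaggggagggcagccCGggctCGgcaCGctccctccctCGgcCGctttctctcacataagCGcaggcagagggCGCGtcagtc

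The TEK window held 5 CpG and 46.4% GC, and the VEGFC window 22 CpG and 74% GC, where the medians of 35116 promoters were 11 CpG and 58% GC. The GC content was below that of TEK in 24.7% of promoters and below that of VEGFC in 87.7%. Of the other 5, VEGFB had the highest GC content, at 82.8% with 30 CpG, and TIE1 the fewest CpG, with 1. Searched on both strands, the AP-1 motif TGANTCA was in none of the 7 windows and in 6.57% of all. The core of the hypoxia response element, ACGTG, was in the ANGPT4 window alone, against 18.5% of all, and the TATA motif TATAAA in those of ANGPT4 and FLT1, against 10.7%. None of the 3 motifs contains another, and a match or its absence describes these letters in this window only.

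Levels of different genes were compared per length, in the TPM values that the authors scaled to the autosomal genes. In WT, VEGFB was highest (105 ± 14.2 TPM, n = 3), followed by VEGFC (24.6 ± 4.76) and VEGFA (15.6 ± 1.94), whose ranges did not overlap. TEK (1.52 ± 0.635) and FLT1 (1.21 ± 0.215) came next, and their ranges overlapped. ANGPT1, TIE1, KDR, ANGPT2 and ANGPT4 followed at 0.206 ± 0.0519 TPM and less, each overlapping the next.

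In ARID1A-KO, ANGPT2 moved from the ninth to the second place, at 32.9 ± 3.22 TPM, between VEGFB (97.5 ± 9.7) and VEGFA (14.6 ± 0.643). VEGFC came after VEGFA there, at 8.56 ± 2.47 TPM, and no neighbours among the first 5 places overlapped, FLT1 (1.15 ± 0.0733) being the fifth. TEK (0.345 ± 0.037) and TIE1 (0.324 ± 0.0799) overlapped, as did KDR, ANGPT1 and ANGPT4 in turn. The ratio of ANGPT2 to VEGFA in TPM was 0.00577 ± 0.00389 in WT and 2.26 ± 0.289 in ARID1A-KO.

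**Figure D3:**
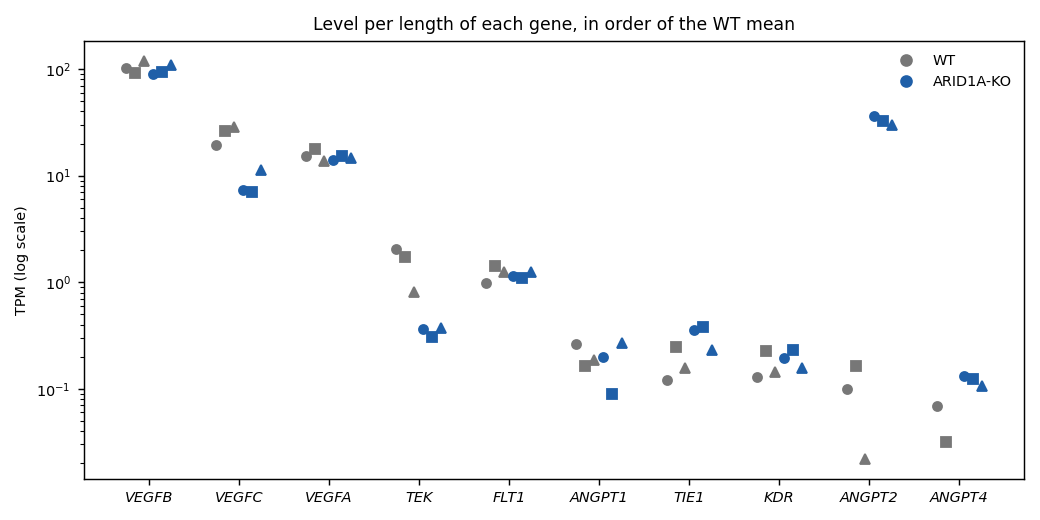
TPM (log scale) of the 10 genes in each sample, ordered by the WT mean, with circles, squares and triangles for replicates 3, 4 and 5. ANGPT2 stands at 0.022 to 0.164 in WT and at 29.8 to 36.3 in ARID1A-KO, and ANGPT4 in WT replicate 5, at 0, is not drawn.

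The make-up of the ligands and receptors, in TPM, followed these levels. ANGPT2 made up 22.9%, 45.4% and 10.4% of the summed angiopoietins in WT replicates 3, 4 and 5, and 99.1%, 99.4% and 98.8% in ARID1A-KO. VEGFC made up 14.1%, 19.3% and 17.5% of summed VEGFA, VEGFB and VEGFC in WT and 6.54%, 6.03% and 8.48% in ARID1A-KO, without overlap. The sum of these VEGFs was 145 ± 14.9 TPM in WT and 121 ± 12.2 in ARID1A-KO. TEK exceeded TIE1 by 17, 6.86 and 5.21 times in WT, and the ratio was 1.02, 0.79 and 1.59 in ARID1A-KO. Summed over TEK, TIE1, FLT1 and KDR, receptor RNA stood at 3.07 ± 0.64 TPM in WT and 2.02 ± 0.0255 in ARID1A-KO. FLT4, the VEGFC receptor, is not in this sum and by itself stood at 10.7 ± 1.1 TPM in WT and 12.6 ± 0.684 in ARID1A-KO.

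Of 12 other ligands, co-receptors and adaptors of the same pathways, 11 were tested, and NRP1 and PGF rose, SVEP1 fell and 8 did not pass, with a median log2 fold change of 0.21. Over all genes tested 17.8% were higher and 18.4% lower, so these counts are near or under the background. NRP1, a co-receptor of VEGFA, was at 78.8, 102 and 86 CPM in WT and 207, 211 and 197 in ARID1A-KO. All ARID1A-KO samples lay above WT, at 1.20 ± 0.09 (edgeR adjusted p = 2.08e-05). PGF, the placental growth factor that binds FLT1, was at 4.32, 5.97 and 5.55 CPM in WT and 11.2, 13 and 11.6 in ARID1A-KO, again without overlap, at 1.17 ± 0.13 (adjusted p = 0.000182). SVEP1, a matrix protein that binds TIE1, was at 2.31, 3.52 and 2.68 CPM in WT and 0.485, 0.71 and 0.864 in ARID1A-KO. It fell by 2.04 on the log2 scale (SE 0.25, adjusted p = 0.000242). FLT4, the receptor of VEGFC, was at 21.6 ± 2.5 CPM in WT and 25 ± 0.976 in ARID1A-KO (0.21, adjusted p = 0.0987), and DOK2, an adaptor of TEK, was too low to be tested at 0.0147 ± 0.015 and 0.0223 ± 0.0103 CPM.

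Of the 8 angiopoietin-like genes, which encode related secreted proteins that do not bind TEK, 2 were tested. ANGPTL2 was at 10.5 ± 1.09 CPM in WT and 6.75 ± 0.487 in ARID1A-KO and fell (-0.63, edgeR adjusted p = 0.00211). ANGPTL4, an inhibitor of lipoprotein lipase, was at 0.345, 0.141 and 0.361 CPM in WT and 0.47, 0.491 and 1.03 in ARID1A-KO. It rose by 1.28 on the log2 scale (adjusted p = 0.0401), a call that was lost with unstranded counts (0.0558) and without WT replicate 3 (0.0697), 4 (0.0974) or 5 (0.0618) or ARID1A-KO replicate 5 (0.149). The other 6 stayed under 1 CPM in every sample.

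Hypoxia-inducible factors (HIFs) switch on VEGFA when oxygen is low. All 20 listed HIF regulators and targets were tested, of which 6 rose, 6 fell and 8 did not pass, at a median of -0.01, where 17.8% of all genes tested were higher and 18.4% lower. The largest changes were falls. CA9, a carbonic anhydrase used as a hypoxia marker, was under 1 CPM in every sample, so the size of its change rests on few reads. It fell by 2.74 on the log2 scale, from 0.267 ± 0.104 to 0.0371 ± 0.00806 CPM (edgeR adjusted p = 0.0023). EGLN3, a prolyl hydroxylase that marks HIF for decay, fell by 1.66 on that scale, from 17.3 ± 2.87 to 5.48 ± 0.452 CPM (2.51e-05), and LOX, a collagen-crosslinking oxidase, by 1.58 from 75.1 ± 10.2 to 25 ± 8.06 CPM (0.000289). EPAS1, which encodes HIF-2α, fell by 1.35 from 49.1 ± 5.8 to 19.2 ± 3.07 CPM (5.14e-05). Among rises, ADM was the largest, at 0.68 (adjusted p = 0.00329), and HIF1A was at 243 ± 7.15 and 223 ± 14 CPM (-0.13, adjusted p = 0.165). ADM and HIF1A were named after their values were seen.

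Of 8 transcription factors linked to ANGPT2 in endothelium, 7 were tested, 3 rose and 1 fell, at a median of 0.20, beside 17.8% higher and 18.4% lower over all genes. GATA2 was at 1.14 ± 0.108 CPM in WT and 2.57 ± 0.213 in ARID1A-KO (1.18, edgeR adjusted p = 0.000421). KLF2, a flow-responsive factor, was at 3.84, 3.41 and 3.42 CPM in WT and 5.29, 5.75 and 13.7 in ARID1A-KO, where replicate 5 stood apart. Its log2 fold change was 1.22 (adjusted p = 0.0171), but 0.63 without that replicate (0.00636), and the call was lost without WT replicate 5 (0.0624). FOXO1, which activates ANGPT2 in endothelial cells, rose by 0.44 on the log2 scale (0.0144), a call lost without ARID1A-KO replicate 3 (0.0526) or 4 (0.0509), and ETS2 fell (-0.49, 0.00047). FOXC2 was at 0 CPM in WT and 0.0125 ± 0.0115 in ARID1A-KO.

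Of 12 other secreted regulators of vessels, 11 were tested, 5 rose and 2 fell, at a median of 0.28. Over all genes tested 17.8% were higher and 18.4% lower, so that the 2 that fell are about the background share. THBS1, the angiogenesis inhibitor thrombospondin, was at 537, 998 and 664 CPM in WT and 260, 268 and 252 in ARID1A-KO. Its log2 fold change was -1.50 (SE 0.19, edgeR adjusted p = 0.000309), with a wide spread in WT and no overlap. APLN, which encodes the endothelial growth signal apelin, rose by 1.22 on the log2 scale, from 0.662 ± 0.118 to 1.54 ± 0.425 CPM (0.00385), and PDGFB, the recruiter of mural cells, by 0.97 from 4.02 ± 0.56 to 7.86 ± 2.82 CPM (0.00974). SERPINF1, which encodes the inhibitor PEDF, rose by 0.91 (adjusted p = 0.0444), and this call was lost under 6 of the settings, among them unstranded counts (0.10, 0.658) and DESeq2 (0.89, 0.0902). HGF was at 0.00969 ± 0.00841 CPM in WT and 0.00985 ± 0.00919 in ARID1A-KO. Genes that promote and genes that restrain vessel growth were found on both sides of the contrast.

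**Figure D4:**
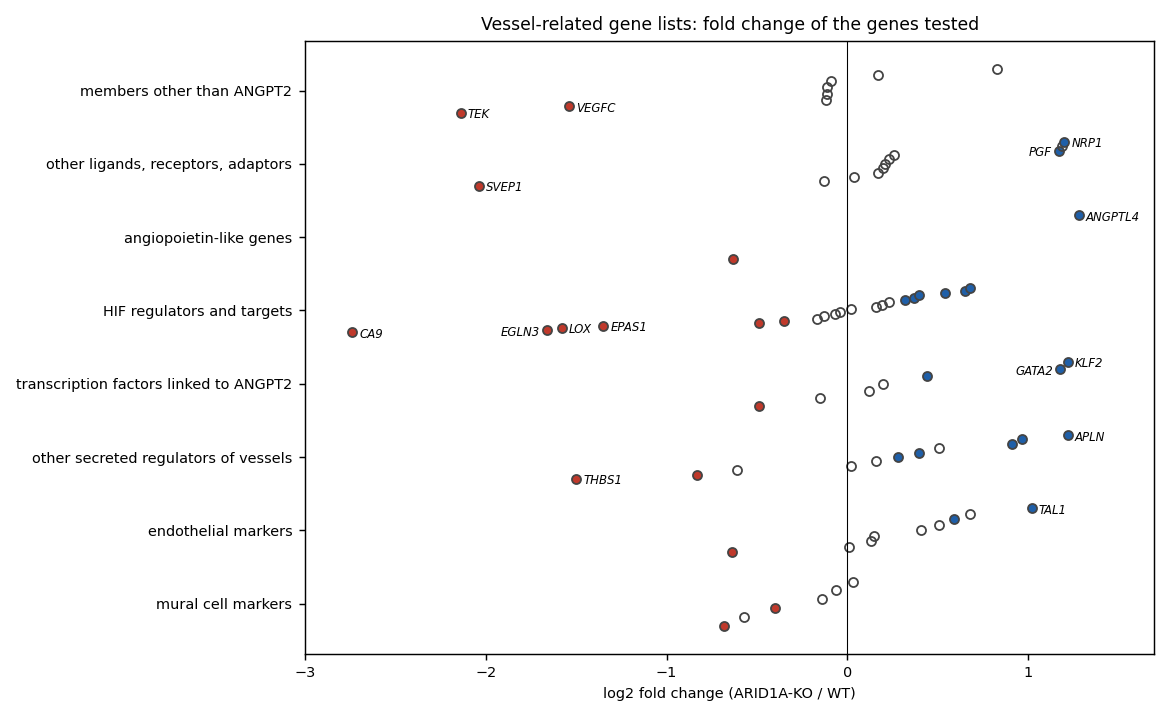
Log2 fold change (ARID1A-KO over WT) of the tested genes of each vessel-related list other than ANGPT2, filled blue where higher and red where lower at an adjusted p under 0.05, open where not called. Points are spread vertically for legibility, and called genes with a change of 1 or more in size are named, from CA9 at -2.74 to ANGPTL4 at 1.28.

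ANGPT2 was chosen for its difference between genotypes, so its contrast with the genes around it is a description. Of the 39 other genes tested whose start site lies within 5 Mb of that of ANGPT2, 5 were higher and 7 lower, not above the 17.8% and 18.4% of all genes tested, with a median log2 fold change of -0.01 and a range from -1.24 to 1.86. The nearest tested start site was that of CTD-2541M15.4, 82.6 kb away, which fell (-1.07, edgeR adjusted p = 0.00853). The highest was CTD-2541M15.1 (1.86, adjusted p = 9.87e-05), 144.8 kb from ANGPT2, and its neighbour AGPAT5, a lysophosphatidic acid acyltransferase, was at 0.46 (0.00196). Around TEK, 12 genes had a median of 0.04, with 3 higher and 4 lower, and the lowest was MOB3B (-1.62, 0.0074), whose start lies 420.6 kb away. Around VEGFC, 17 genes had a median of -0.21, with 2 higher and 5 lower. The lowest of those called were NEIL3, a DNA glycosylase (-1.23, 7.58e-06), and AGA, a lysosomal amidase (-1.03, 6.63e-05), at 517.1 and 649.8 kb. The 17.8% and 18.4% of all genes tested are the background of these counts as well. These neighbours were named after their values were seen.

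**Figure D5:**
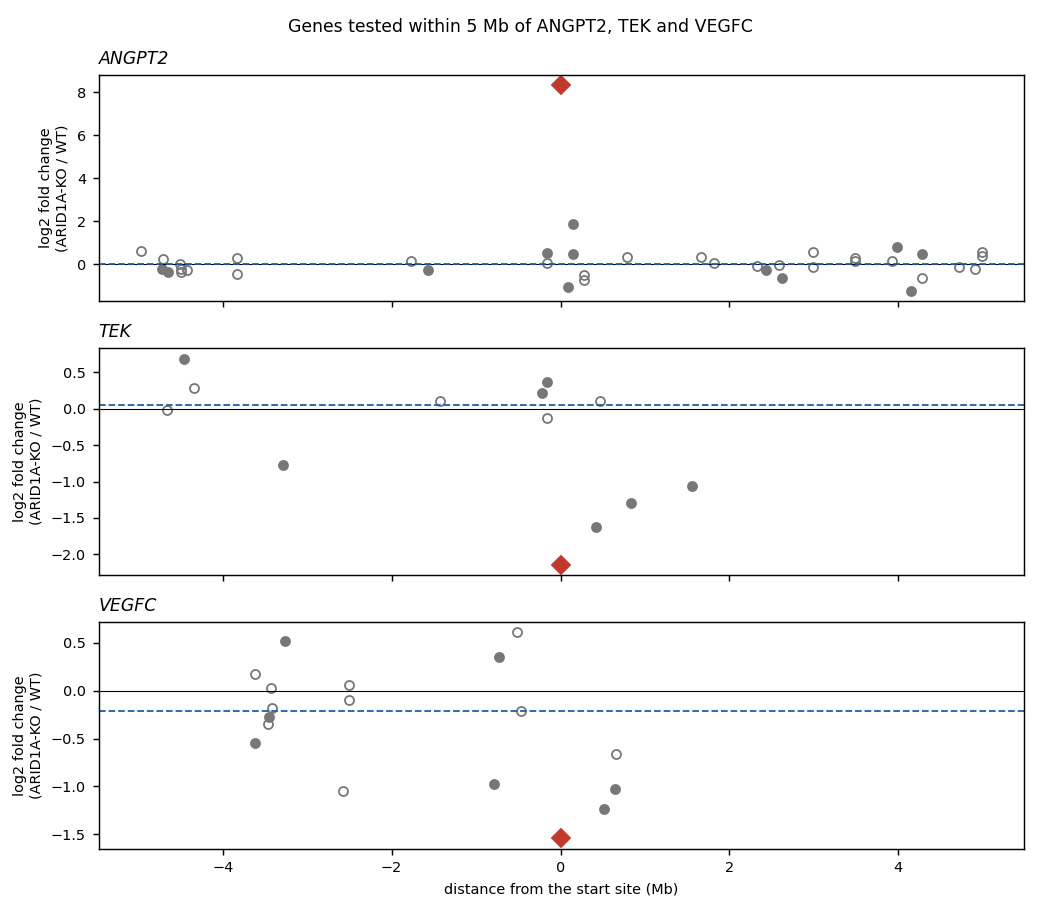
Log2 fold change (ARID1A-KO over WT) of genes tested within 5 Mb of the start sites of ANGPT2, TEK and VEGFC (red diamonds) against the distance between start sites, with filled points called at an adjusted p under 0.05 and the median of the neighbours as a dashed line. The neighbours of ANGPT2 lie between -1.24 and 1.86, and ANGPT2 at 8.35.

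Genes with a pattern like that of ANGPT2 were ranked by the Euclidean distance of their mean-centered log2 CPM over the 6 samples, and the 5 nearest are given as a description. HEYL, a transcriptional repressor of the Notch pathway, was the nearest at 2.29, with 0, 1 and 0 reads in WT and 249, 228 and 339 in ARID1A-KO. MAGEB1, a cancer-testis antigen on the X chromosome, followed at 3.33, with 1 read in each WT sample and 229, 158 and 222 in ARID1A-KO. C7orf71 came at 3.50, with 1, 0 and 0 against 116, 106 and 197 reads. These were all nearly silent in WT, and all were at lower levels than ANGPT2 in ARID1A-KO. PERP, a p53 target and desmosomal protein, lay at 3.54, with no read in WT and 97, 81 and 216 in ARID1A-KO, and CLEC2L, a C-type lectin gene, at 3.73, with 3, 0 and 0 against 131, 136 and 162 reads. None is among the ligands, receptors and regulators listed above, and HEYL is also within 5 Mb of TIE1 on chromosome 1.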

How the data were processed

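Untreated AID-DIvA cells were measured by stranded paired-end RNA-seq of 3 WT and 3 ARID1A-KO samples, grouped by the genotype in the labels. The authors aligned reads to GRCh37 with STAR and deposited featureCounts output as raw whole-number counts for each gene in 3 columns, unstranded, reverse-stranded and forward-stranded. A TPM column that the authors deposited, treated here as a signal, was computed from reverse-stranded counts and scaled to the autosomal genes, so all genes together sum to between 1330727 and 1382709.

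Members and lists were chosen with earlier results of these data known. The named genes are ARID1A, the 10 ligands and receptors, genes overlapping ANGPT2, at most 4 called genes per other list by size of change, list members near 0, and the 5 genes most like ANGPT2. Exceptions are stated. The result of 1 osteoblast lineage marker is not reported here.

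Reverse-stranded counts were filtered with filterByExpr, scaled by TMM and compared between genotypes with the quasi-likelihood test of edgeR 4.0.16 in R 4.3.3, with all 6 samples, no covariate and Benjamini-Hochberg adjustment over 19599 genes. A gene with an adjusted p under 0.05 is called, and rose and fell are used of called genes only. SE is the size of the log2 fold change divided by the root of the F statistic. Log2 CPM used a prior count of 2, and fitted fold changes one of 0.125. The common biological coefficient of variation was 0.111. Forward-stranded counts came to between 5.83% and 6.15% of reverse-stranded counts. No pair of samples of a group differed by as little as sampling noise (chi-square per gene of 6.94 to 29.8). Coordinates are those of the tables, counted from 1. Promoters are RefSeq entries of GRCh38.p14.

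As alternatives, the test was repeated with DESeq2 1.42.0, on unstranded counts, with RLE size factors, with a block for the replicate number, without a filter or with a minimum of 10 counts in all samples, with each sample left out, and at an adjusted p under 0.01. The fits were tested on simulated data.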

Additional observations from a re-analysis of the deposited data

Results flagged for a closer look

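Forward-stranded reads of ANGPT2, which the test on reverse-stranded counts did not use and the unstranded counts hold only in part, summed to 201 over the 3 ARID1A-KO samples and to 123 over the 3 WT samples. They were picked out because a signal above the WT level stood in a count column outside the main measurement. Scaled to the reverse-stranded library total as CPM they came to between 0.856 and 1.16 in ARID1A-KO and between 0.468 and 0.732 in WT, and the ranges did not overlap. The difference was not tested, and neither was the part of sense reads counted on the wrong strand in it. MCPH1 is transcribed on the strand of these reads and shares exonic bases with ANGPT2 in GENCODE. The part of MCPH1 reads among them was not tested either.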

How the results depend on the processing

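Of 95 refits of single ligands and receptors other than ANGPT2, 88 kept their direction and side of the threshold. The median around ANGPT2 lay between -0.049 and 0.002, above 0 with DESeq2. The count of higher genes among the 10 includes ANGPT2, whose values chose the set, and is no test of it. It was 0 with at least 10 counts in every sample, which leaves out ANGPT2, 2 with no filter, which adds TIE1, and 1 to 2 with a sample left out. Higher calls among angiopoietin-like genes went from 1 to 0 with unstranded counts and with an adjusted p under 0.01, and lay between 0 and 1 with a sample left out. An adjusted p under 0.01 left 1 of 3 higher transcription factors and 3 of 5 higher secreted regulators. Unstranded counts left 3 of these regulators, and leaving out a sample gave 3 to 5. Signs turned with a sample left out for ANGPT1 (-0.46 to 0.17, 0.09 without WT replicate 3 and 0.17 without ARID1A-KO replicate 4), FLT1 (-0.24 to 0.04, the latter without WT replicate 4) and KDR (-0.0013 to 0.48, the former without WT replicate 3), none of them called. The cause was not tested.

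Same-numbered samples deviated from their group means with correlations of -0.177, 0.268 and 0.180 for replicates 3, 4 and 5. WT replicates 3 and 4 correlated best with ARID1A-KO replicates 5 (0.295) and 3 (0.280), and WT replicate 5 with ARID1A-KO replicate 5 (0.180). With 3 samples per group, these correlations cannot decide whether the numbers pair the samples. With the replicate block, 2 of the 8 genes other than ANGPT2 were called lower and the median around ANGPT2 was -0.004. Low reads limit ANGPT1, ANGPT4, TIE1, KDR and ANGPT2 in WT.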
